A study of Mus musculus with 22 samples.

Results

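The genes described are 50 genes of the cell cycle and of proliferation, chosen by name from the cyclins, kinases, licensing factors, spindle proteins, transcription factors and inhibitors that run cell division, out of 33984 genes counted. RNA sequencing covered adult mouse choroid plexus (ChP), the secretory epithelium and its stroma that lie in the brain ventricles. Tissue came from the lateral ventricles (LV) or the fourth ventricle (4V). In the conditional model, 3-month-old Otx2lox/lox mice (strain S129) received Cre-Tat protein or vehicle by injection into the lateral ventricles and were kept for 15 days, so both groups carry the floxed allele. Cre-Tat is a recombinase that enters cells, and each Cre-Tat pool held tissue of 5 mice and each vehicle pool tissue of 4. In the constitutive model (strain B6D2, 4V only), Otx2 (+/-) and Otx2 (+/AA) mice were compared with wildtype (WT). The heterozygotes carry a GFP knock-in at Otx2, and RNA of 4 of them and of 5 WT littermates, 3 months old, went into these groups. The labels name the +/AA allele and no more, and the genotypes are written Otx2+/- and Otx2+/AA here. Each of the 7 groups has 2 pools, and 22 libraries or technical runs make up the 14 pools, with 22750019 to 50088408 counts per pool over all transcripts and 10558002 to 24833188 over the transcripts that stand for genes.

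Division is driven by cyclins bound to their kinases. D cyclins with Cdk4 and Cdk6, then E cyclins with Cdk2, lift the block that Rb1 and its relatives hold on the E2F factors, DNA is licensed by the Mcm helicase and copied, and Cdk1 with cyclins A and B carries the cell into mitosis, where kinases, kinesins and the anaphase-promoting complex part the chromosomes. The epithelium of the adult ChP is known as a largely non-dividing tissue, in which p27 (Cdkn1b) and the pocket proteins are the brakes of resting cells. Bulk RNA cannot tell fewer cells of a type from less RNA per cell.

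Several facts of the series bear on every value below. Among the 16 files from injected mice, 14 carry a library number other than that of their sample's description, and the pools used here follow the number. On that reading the 2 technical runs of a pool differed by no more than counting noise, with a chi-square per degree of freedom of 1.00 to 1.03 against at least 3.86 between other libraries. Levels are given as CPM, the counts of a gene per 1000000 counts of its pool. Emx2, a homeobox gene of the forebrain, then read 4.68 to 5.69 CPM in the 4 LV pools and at most 0.271 CPM in the 4V pools, and Hoxb2, a hindbrain gene, had 0 counts in all LV pools. Otx2 itself, counted over a whole transcript that does not separate the deleted part, read 386 and 470 CPM in vehicle LV, 1236 and 1025 in Cre-Tat LV, 386 and 393 in vehicle 4V, 1202 and 1222 in Cre-Tat 4V, 361 and 303 in WT, 1027 and 886 in Otx2+/- and 339 and 357 in Otx2+/AA. The whole-transcript count was thus higher where the label says knockdown in 2 models, so the groups below are pools labelled as such, and the directions rest on those labels. Ttr, the main product of the epithelium, was lower in both Cre-Tat groups, in Otx2+/- and in Otx2+/AA, with no overlap with the controls. It was past the threshold in 4V (log2 -1.18, SE 0.30, adjusted p = 0.0148) and Otx2+/- (-0.78, SE 0.17, adjusted p = 0.0395) and not in LV (-0.66, SE 0.19, adjusted p = 0.0773). In Otx2+/AA Ttr read 109502 and 115956 CPM against 147829 and 139112 in WT, and it was not called there. Nothing in the labels says that the 2 pools of a group are independent beyond their letters. The study describes each conditional group as 2 sets of mice, and each constitutive group as pooled tissue with duplicate samples. Whether the 2 constitutive pools of a group hold different mice is not stated there. The p-values rest on the spread between these pools, with the spread of each gene drawn towards that of the other genes tested. LV and 4V tissue was dissected separately from the injected mice, so pools of the 2 ventricles can share mice. Results in LV and 4V may therefore not be independent of each other, and the comparisons between ventricles did not pair them. The 2 models differ in strain and sequencing run as well, which cannot be told apart from the model.

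The members spanned a wide range of levels. Of the 50 genes, 9 averaged at least 10 CPM over the 14 pools, 23 averaged 1 to 10 CPM and 18 less than 1 CPM. Together they took 0.0320 to 0.0571% of the counts of a pool, and the 24 mitotic genes took 0.00184 to 0.00340%. Per kilobase of transcript, which allows levels to be compared between genes, the highest were the D cyclin Ccnd3 (19.2 CPM per kb), the pocket protein Rbl2 (16.7), the D cyclin Ccnd2 (15.5), the inhibitor Cdkn1b (11.5) and the G1 kinase Cdk4 (9.40). At the other end Cdc25c, the phosphatase that switches Cdk1 on, averaged 0.00942 CPM per kb and was at 0 in 10 of 14 pools, with at most 2 counts in the others. Cyclin B1 (Ccnb1) never passed 3 counts and thymidine kinase (Tk1) was at 0 in 8 pools. A count of 0 allows up to 0.12 to 0.28 CPM, the level of 3 counts, depending on the pool, and this covers counting error only. In all, 34 members had enough counts to be tested in all 8 comparisons, and 11 in none of them: Aurkb, Birc5, Bub1, Ccnb1, Ccnb2, Cdc20, Cdc25c, Cenpa, Rrm2, Tk1 and Ube2c, which with Plk1, tested in 1 comparison, are almost all genes of mitosis.

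**Figure D1:**
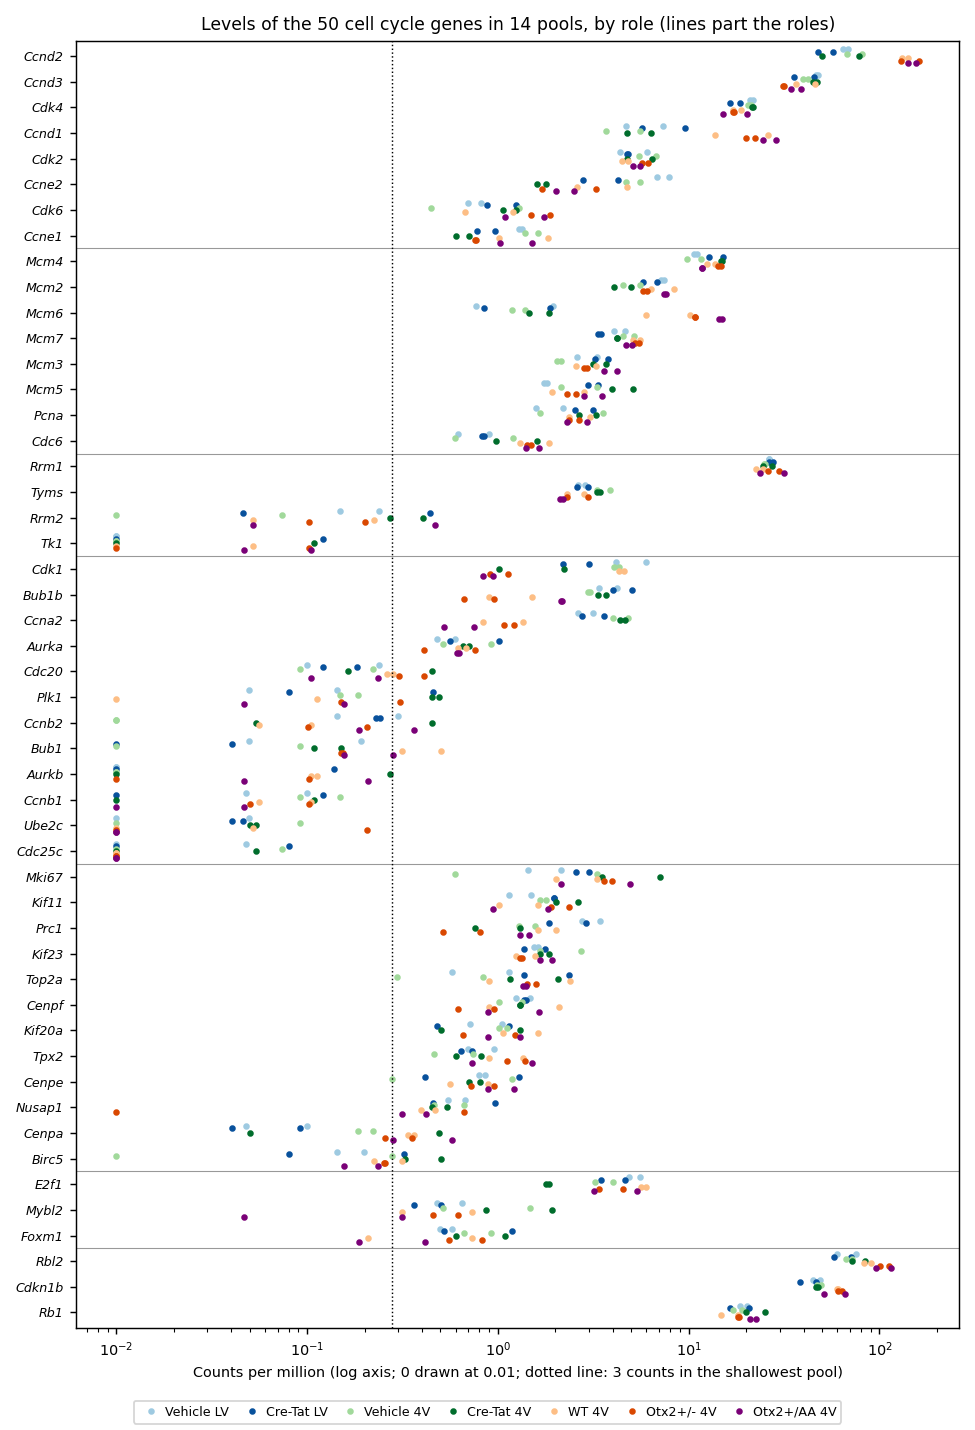
Level of each of the 50 cell cycle genes in the 14 pools, in CPM on a log axis, with 1 point per pool coloured by group, grouped by role from G1 cyclins at the top to brakes at the bottom; pools at 0 are drawn at 0.01. Ccnd2, Ccnd3, Rbl2 and Cdkn1b lie farthest to the right, and many pools of the mitotic genes lie left of the dotted line at 3 counts of the shallowest pool (0.277 CPM).

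Cdk1 and Ccne2 were the members that passed an adjusted p of 0.05 in any comparison, Cdk1 in 3 and Ccne2 in 2, and each was lower in the pools labelled as Otx2 mutant or Cre-Tat. Cdk1 is the kinase of mitotic entry (ENSMUSG00000019942, chr10:69335146-69352938 on the minus strand of mm10, counted over transcript Cdk1-201). It read 4.33 and 4.56 CPM in WT 4V, 0.909 and 1.13 in Otx2+/- and 0.938 and 0.834 in Otx2+/AA, from 83 and 81, 18 and 22, and 20 and 16 counts. In the conditional 4V it read 4.30 and 4.06 CPM with vehicle and 2.23 and 1.01 with Cre-Tat, and in LV 5.97 and 4.18 with vehicle and 3.01 and 2.20 with Cre-Tat. Every pool labelled as treated or mutant lay below every control pool of its own comparison, and the 3 control groups, of 2 strains, lay close to each other.

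The fall of Cdk1 was 4.33-fold in Otx2+/- (log2 fold change -2.12, SE 0.29, adjusted p = 0.00582) and 5.01-fold in Otx2+/AA (-2.32, SE 0.32, adjusted p = 0.00728). These comparisons share the WT pools, and the 2 mutant genotypes differed from each other by 0.20 (SE 0.43, adjusted p = 0.88). In Cre-Tat 4V Cdk1 fell 2.59-fold (-1.37, SE 0.36, adjusted p = 0.0197), a call that is lost without Cre-Tat pool 2, the lowest of the pair (-0.90, adjusted p = 0.15). In LV the difference was -0.95 (SE 0.30), unadjusted p = 0.00645 and adjusted p = 0.12. Neither the difference between LV and 4V in the response to Cre-Tat (0.42, SE 0.49, adjusted p = 1.00) nor that between the models in 4V (0.73, SE 0.50, adjusted p = 0.58) passed the test. Each of the 7 annotated Cdk1 transcripts, which share reads, moved the same way, to 27.9 to 65.4% of the vehicle mean in Cre-Tat 4V, 46.8 to 56.2% in Cre-Tat LV, 22.9 to 30.0% of WT in Otx2+/- and 16.6 to 29.9% in Otx2+/AA.

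Ccne2 is cyclin E2, a partner of Cdk2 at the start of DNA synthesis (ENSMUSG00000028212, chr4:11191351-11204779, plus strand). Its level was 6.83 and 7.86 CPM in vehicle LV, 4.26 and 2.80 in Cre-Tat LV, 5.56 and 4.71 in vehicle 4V and 1.79 and 1.61 in Cre-Tat 4V. In the constitutive pools it was 4.75 and 2.59 CPM in WT, 3.28 and 1.70 in Otx2+/- and 2.02 and 2.50 in Otx2+/AA. The Cre-Tat and vehicle pools did not overlap in either ventricle, whereas the Otx2+/- pools fell on both sides of the lower WT pool and both Otx2+/AA pools lay just below it. Ccne2 fell 3.01-fold in Cre-Tat 4V (-1.59, SE 0.30, adjusted p = 0.00188) and 2.07-fold in LV (-1.05, SE 0.26, adjusted p = 0.0444). The LV call stands close to the threshold and is lost without Cre-Tat LV pool 2 (-0.77, adjusted p = 0.15) or without vehicle LV pool 2 (-0.95, adjusted p = 0.13), and with DESeq2 (adjusted p = 0.0536). Against WT the differences were -0.56 (SE 0.39, adjusted p = 0.51) in Otx2+/- and -0.71 (SE 0.33, adjusted p = 0.56) in Otx2+/AA. A stretch of 20.3% of the Ccne2 transcript lies opposite an exon of Ints8, a gene on the other strand that differed by -0.02 (SE 0.18) in Cre-Tat LV and 0.08 (SE 0.15) in 4V, and whether the counting used the strand is not given in the sources used here.

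**Figure D2:**
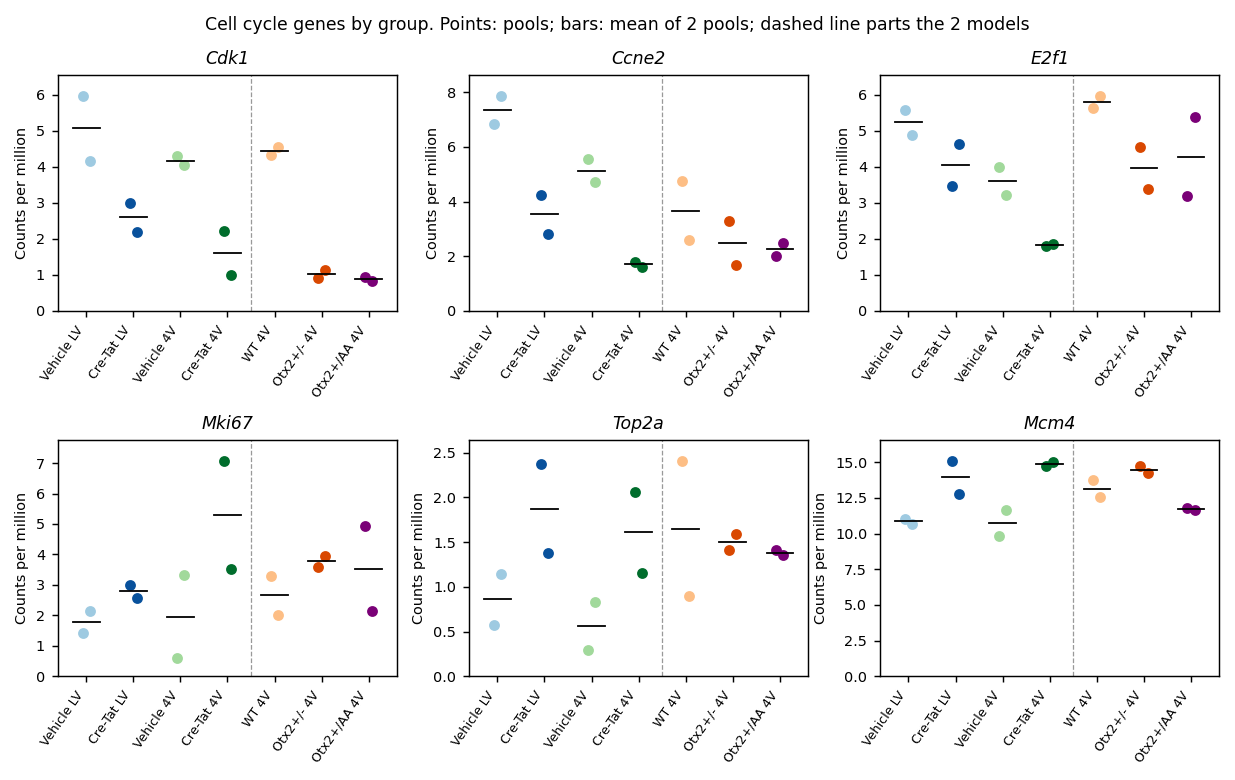
CPM of 6 members in the 14 pools, with 1 point per pool and a bar at the mean of 2 pools; the dashed line parts the conditional from the constitutive model, and each axis starts at 0. Cdk1 and Ccne2 are lower in the Cre-Tat pools than in vehicle pools, Cdk1 is near 1 CPM in all 4 constitutive mutant pools, and Mki67 and Top2a are higher in the Cre-Tat pools with a wide spread.

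The promoter of Cdk1 is shown with those of E2f7 and Espl1. These were the 2 genes past the threshold and lower in Cre-Tat 4V in a list of other cell cycle genes outside the members, described below. They were thus picked by that result, and genes with negative differences that did not pass are not shown. The sites below are those by which cell cycle genes are known to be held silent in resting cells and switched on in dividing cells. The sequences are the 250 bases before the start of the gene in RefSeq (GRCm38.p6), on the strand of the gene, with the motifs in capitals: TTTGAA or its palindromic form TTCGAA (the cell cycle homology region, CHR), CCAAT (the CCAAT box, which reads ATTGG on the other strand) and 4 spellings of the E2F site, TTCCCGC or TTTGGCG or TTTCCCG or TTTCGCG, of which the first and the third can overlap. All were searched on both strands.
Cdk1 (chr10:69352913-69353162, minus strand): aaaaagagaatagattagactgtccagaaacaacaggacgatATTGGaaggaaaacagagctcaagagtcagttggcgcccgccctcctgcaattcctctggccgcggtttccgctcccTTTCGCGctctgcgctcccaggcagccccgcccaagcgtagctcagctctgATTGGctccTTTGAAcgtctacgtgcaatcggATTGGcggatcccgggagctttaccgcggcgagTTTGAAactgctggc
E2f7 (chr10:110745189-110745438, plus strand): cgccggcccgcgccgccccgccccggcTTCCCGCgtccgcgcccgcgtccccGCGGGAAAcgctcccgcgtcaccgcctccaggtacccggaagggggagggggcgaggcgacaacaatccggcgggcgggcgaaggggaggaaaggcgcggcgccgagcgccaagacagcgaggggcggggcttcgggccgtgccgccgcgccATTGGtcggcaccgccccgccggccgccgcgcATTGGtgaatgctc
Espl1 (chr15:102296043-102296292, plus strand): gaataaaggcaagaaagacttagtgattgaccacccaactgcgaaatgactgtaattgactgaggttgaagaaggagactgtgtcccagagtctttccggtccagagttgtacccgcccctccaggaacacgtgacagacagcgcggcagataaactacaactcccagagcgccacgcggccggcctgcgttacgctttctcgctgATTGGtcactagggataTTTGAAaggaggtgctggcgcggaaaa
The Cdk1 window holds 2 TTTGAA motifs, whose first bases lie 71 and 15 bases before the start, 3 CCAAT boxes and 1 TTTCGCG. Espl1 has TTTGAA and a CCAAT box with first bases 27 and 44 bases before the start, and E2f7 has CCAAT boxes and overlapping E2F letters with no CHR. RefSeq windows from 250 bases before to 50 after the start were matched for 39 members. Of these 46.2% held a CHR against 21.7% of all 27025 genes with a window, 71.8% held CCAAT against 41.1%, 25.6% held an E2F motif against 10.02%, and 43.6% held CHR and CCAAT together against 8.61%. Ccne2 was not among those matched, nor were Aurkb, Ccna2, Ccnd1, Ccnd2, Cdc25c, Foxm1, Kif20a, Mcm4, Rb1 and Tpx2. The windows of Mki67 and Top2a, which read higher in the Cre-Tat 4V pools without passing the threshold, also held TTTGAA and CCAAT. These matches are letters in a window and are given as a description.

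In Cre-Tat 4V, 37 members were tested and 2 passed, both lower, which is 5.41% of the members tested beside 10.7% of all 14550 genes tested (4.98% lower and 5.7% higher). In LV 1 of 38 passed, lower, which is 2.63% beside 3.24% of 15002 genes (1.03% lower and 2.21% higher). These shares do not set the members apart from other genes. The median log2 fold change of the members tested was 0.02 in LV and 0.10 in 4V, beside 0.00 and 0.01 over all genes tested, with 20 of 38 and 22 of 37 members on the positive side. With libraries scaled by total counts, 5 members passed in 4V, 3 higher (Mcm4, Mki67 and Top2a) and 2 lower, beside 1742 of all 14550 genes. In LV 0 passed without Cre-Tat pool 2 or without vehicle pool 2. The directions in the conditional model rest on the library numbers: with the files as attached, Ccne2 differed by 0.68 in LV and 0.95 in 4V, and Cdk1 by 0.60 in 4V.

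G1 cyclins and kinases were the most abundant of the dividing machinery and gave 8 tested members, of which only Ccne2 passed in the Cre-Tat comparisons and none in the constitutive ones. Ccnd2, a D cyclin, read 64.3 and 68.1 CPM in vehicle LV, 57.1 and 47.8 in Cre-Tat LV, 67.9 and 80.7 in vehicle 4V, 50.1 and 77.9 in Cre-Tat 4V, 131 and 141 in WT, 162 and 130 in Otx2+/- and 141 and 156 in Otx2+/AA. It overlapped between the groups of each 4V comparison, and in LV the Cre-Tat pools were below the vehicle pools by 0.33 (log2, SE 0.16, adjusted p = 0.39). Ccnd3, another D cyclin, read 46.3 and 47.5, 35.5 and 45.4, 42.3 and 39.5, and 44.7 and 47.2 CPM in the same 4 conditional groups, and 45.8 and 36.7, 31.4 and 31.2, and 34.3 and 38.9 CPM in the constitutive groups. Its Otx2+/- pools lay below both WT pools (log2 -0.40, SE 0.14, adjusted p = 0.16). A stretch of 16.7% of the Ccnd3 transcript lies opposite Bysl, which differed by -0.42 in that comparison (SE 0.14, adjusted p = 0.15). Whether reads of Bysl enter the Ccnd3 count was not tested. Cyclin E1 (Ccne1), named after its values were seen as the close relative of Ccne2, read 1.63 and 1.38 CPM in vehicle 4V and 0.706 and 0.605 in Cre-Tat 4V, from 22 and 15 against 13 and 12 counts (log2 -1.20, SE 0.47, adjusted p = 0.13). Cdk4, Cdk2 and Cdk6 gave log2 differences smaller than their 2 SE in both Cre-Tat comparisons.

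The replication members are subunits of the Mcm helicase, the clamp Pcna and Cdc6, which helps load the helicase onto DNA. They were measured throughout, and none of the 8 passed in any of the 4 comparisons with controls. Mcm4, a subunit of the Mcm helicase, read 11.03 and 10.7 CPM in vehicle LV, 15.1 and 12.8 in Cre-Tat LV, 9.85 and 11.6 in vehicle 4V and 14.8 and 15.01 in Cre-Tat 4V. It was higher in Cre-Tat pools of both ventricles with no overlap, by 0.36 in LV (SE 0.18, adjusted p = 0.41) and 0.48 in 4V (SE 0.18, adjusted p = 0.10). In the constitutive pools Mcm4 read 13.7 and 12.5 CPM in WT, 14.7 and 14.2 in Otx2+/- and 11.8 and 11.7 in Otx2+/AA. Mcm2, another subunit, read 7.16 and 7.46 CPM in vehicle LV, 5.78 and 6.84 in Cre-Tat LV, 5.56 and 4.52 in vehicle 4V, 4.99 and 4.08 in Cre-Tat 4V, 8.35 and 6.36 in WT, 5.75 and 6.01 in Otx2+/- and 7.59 and 7.41 in Otx2+/AA. The helicase subunits differed in sign: in Cre-Tat 4V, Mcm3 and Mcm5 (named after their values were seen) and Mcm4 had unadjusted p-values of 0.0383, 0.0244 and 0.0147 with positive differences, while Mcm2 and Mcm7 were slightly negative. The genes of nucleotide supply gave no call either. Rrm1, the large subunit of ribonucleotide reductase, read 26.3 and 26.5 CPM in vehicle LV, 26.2 and 27.8 in Cre-Tat LV, 25.3 and 24.9 in vehicle 4V, 24.6 and 27.4 in Cre-Tat 4V, 24.5 and 22.7 in WT, 29.7 and 26.2 in Otx2+/- and 31.6 and 23.6 in Otx2+/AA. Its small, S-phase partner Rrm2 had 0 to 11 counts per pool. Tyms, which makes thymidylate, read 2.87 and 2.64, 2.61 and 2.98, 3.85 and 3.32, and 3.31 and 3.43 CPM in the conditional groups in that order, and 2.30 and 2.81, 2.98 and 2.31, and 2.11 and 2.19 CPM in the constitutive groups, with differences no larger than the SE in the 4 comparisons with controls.

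No mitotic member other than Cdk1 passed in any comparison. Its B cyclins were scarce, with 0 to 3 counts per pool for Ccnb1 and 0 to 9 for Ccnb2, whereas Ccna2 (cyclin A2) averaged 0.860 CPM per kb beside 0.647 for Cdk1. Ccna2, named after its values were seen, did not follow Cdk1 in the conditional 4V, with 4.00 and 4.80 CPM in vehicle and 4.34 and 4.63 in Cre-Tat pools (log2 difference 0.05 beside -1.37 for Cdk1). Bub1b, a spindle checkpoint kinase averaging 0.740 CPM per kb, read 3.39 and 4.23 CPM in vehicle LV, 5.02 and 3.99 in Cre-Tat LV, 3.04 and 2.95 in vehicle 4V and 3.37 and 3.68 in Cre-Tat 4V. In the constitutive pools Bub1b read 1.51 and 0.900 CPM in WT, 0.959 and 0.668 in Otx2+/- and 2.16 and 2.14 in Otx2+/AA. The latter 2 genotypes did not overlap (log2 -1.39 in Otx2+/- against Otx2+/AA, SE 0.37, unadjusted p = 0.00297, adjusted p = 0.0811), the smallest p of a member in that comparison, in which 0 of 36 members passed beside 2.7% of all genes.

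Among genes of chromosomes and spindle, the proliferation marker Mki67 and the topoisomerase Top2a (the latter named after its values were seen) had positive differences in Cre-Tat pools, opposite to Cdk1. Mki67 read 1.43 and 2.14 CPM in vehicle LV, 3.01 and 2.57 in Cre-Tat LV, 0.593 and 3.32 in vehicle 4V and 7.06 and 3.53 in Cre-Tat 4V. Top2a read 0.573 and 1.14, 2.37 and 1.38, 0.296 and 0.831, and 2.06 and 1.16 CPM in the same groups. The groups did not overlap for either gene in either ventricle, but the pools of a group differed by up to several-fold, and vehicle 4V pool 1 had 8 counts of Mki67 and 4 of Top2a. In 4V the differences were 1.51 (SE 0.48, unadjusted p = 0.00589, adjusted p = 0.0540) for Mki67 and 1.56 (SE 0.56, adjusted p = 0.0897) for Top2a, and in LV 0.65 (SE 0.35, adjusted p = 0.47) and 1.13 (SE 0.49, adjusted p = 0.30). In the constitutive pools Mki67 read 3.29 and 2.03 CPM in WT, 3.58 and 3.96 in Otx2+/- and 4.92 and 2.14 in Otx2+/AA, where the last group overlapped WT. Kif11, a spindle motor, read 1.15 and 1.49, 1.97 and 1.97, 1.78 and 1.66, and 2.01 and 2.62 CPM in the conditional groups and 1.62 and 1.01, 2.37 and 1.90, and 1.83 and 0.939 CPM in the constitutive groups, and passed in none. Prc1, a protein that bundles the central spindle and was named after its values were seen, read 1.62 and 2.03 CPM in WT and 0.808 and 0.514 in Otx2+/-. These groups did not overlap (log2 -1.45, SE 0.41, unadjusted p = 0.00729, adjusted p = 0.11). The 24 mitotic members, Cdk1 included, summed to 26.2 and 26.7 CPM in vehicle LV, 28.8 and 25.7 in Cre-Tat LV, 24.7 and 25.8 in vehicle 4V and 31.2 and 26.04 in Cre-Tat 4V, and to 25.9 and 20.1 in WT, 18.4 and 19.2 in Otx2+/- and 23.02 and 17.4 in Otx2+/AA. The sum overlapped in LV and between Otx2+/AA and WT, lay narrowly higher in both Cre-Tat pools of the 4V, and lay lower in both Otx2+/- pools than in WT. Without Cdk1 the sum was higher in each Cre-Tat pool of both ventricles than in the vehicle pools, and overlapped between the constitutive groups. Vehicle against Cre-Tat pools then read 20.3 and 22.5 against 25.8 and 23.5 CPM in LV, and 20.4 and 21.7 against 28.9 and 25.04 in 4V. Cdk1 is the mitotic member called lower in Cre-Tat 4V, so leaving it out favours a higher Cre-Tat sum. The sum also takes in Mki67 and Top2a, given above. A rise shared by the remaining mitotic members was not tested. The tested genes of chromosomes and spindle had a median log2 difference of 0.04 in LV and 0.14 in 4V.

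Markers of several cell types moved with the Cre-Tat label. The 12 macrophage and microglia markers summed to 82.8 to 95.7 CPM in vehicle LV and 146 to 159 in Cre-Tat LV, and to 60.3 to 66.4 and 102 to 133 CPM in 4V, with 4 and 8 of 12 past the threshold, all higher, beside 2.21% and 5.7% of all genes called higher. The 10 lymphocyte markers, of which Nkg7 had at most 3 counts in any pool, summed to 1.24 to 1.34 and 4.31 to 6.75 CPM in LV and 1.11 to 1.41 and 2.87 to 3.96 CPM in 4V. Only 2 of these 10 had enough counts to be tested in each ventricle, and 1 passed in LV, higher, and 0 in 4V. The 6 ependymal markers summed to 255.6 to 262 CPM in vehicle LV and 385 to 458 in Cre-Tat LV, and to 237 to 286 and 415 to 432 CPM in 4V, with 3 and 2 of 5 tested higher. Of the 10 epithelial markers, which define the tissue, 3 in LV and 9 in 4V passed, all lower, beside 1.03% and 4.98% of all genes called lower. Their sum is nearly all Ttr, the transthyretin of the epithelium, and the other 9 summed to 9117 to 10377 CPM in vehicle LV, 6348 to 6861 in Cre-Tat LV, 8566 to 8840 in vehicle 4V and 4614 to 5449 in Cre-Tat 4V. In the constitutive model these 9 summed to 8020.4 to 8695 CPM in WT, 6326 to 7078 in Otx2+/- and 7334 to 7940 in Otx2+/AA. Of the 10, 4 were called lower in Otx2+/- and 0 in Otx2+/AA, beside 1.75% and 0.172% of all genes called lower. The macrophage markers summed to 115 to 118, 120 to 127 and 134 to 151 CPM in the same groups, with 1 of 12 higher in Otx2+/-, and the 10 mural and fibroblast markers to 1211 to 1271, 1462 to 1604 and 1113 to 1217 CPM, with 2 higher in Otx2+/-. Of all genes 1.78% were called higher in Otx2+/-. The part of these cells in the values of Cdk1, Ccne2, Mki67 and Top2a was not tested.

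E2f1, the first of the E2F activators, was the most abundant of the 3 transcription factors. It read 5.59 and 4.87 CPM in vehicle LV, 3.45 and 4.63 in Cre-Tat LV, 4.00 and 3.23 in vehicle 4V, 1.79 and 1.86 in Cre-Tat 4V, 5.64 and 5.96 in WT, 4.54 and 3.39 in Otx2+/- and 3.19 and 5.37 in Otx2+/AA. Every mutant or Cre-Tat pool lay below the control pools of its comparison, with differences of -0.98 in Cre-Tat 4V (SE 0.32, unadjusted p = 0.00677, adjusted p = 0.0594), -0.54 in Otx2+/- (SE 0.23, adjusted p = 0.25), -0.45 in Otx2+/AA (SE 0.27, adjusted p = 0.72) and -0.37 in Cre-Tat LV (SE 0.26, adjusted p = 0.62). None passed the threshold here, though E2f1 was called in Cre-Tat 4V with no filter on low counts and with counts summed over transcripts. Mybl2, an activator of G2 genes, was low at 1 to 38 counts, with 0.478 and 0.647, 0.361 and 0.505, 0.519 and 1.48, and 0.869 and 1.91 CPM in the conditional groups and 0.313 and 0.731, 0.454 and 0.617, and 0.0469 and 0.313 CPM in the constitutive groups, and its groups overlapped in both Cre-Tat comparisons and in Otx2+/-.

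The 3 brakes gave no call in the comparisons as designed. Rbl2, the pocket protein p130 of resting cells, read 59.6 and 75.4 CPM in vehicle LV, 70.6 and 57.9 in Cre-Tat LV, 66.5 and 71.5 in vehicle 4V, 71.5 and 84.1 in Cre-Tat 4V, 89.9 and 82.6 in WT, 112 and 100 in Otx2+/- and 114 and 95.8 in Otx2+/AA. The 4 constitutive mutant pools lay above the WT pools, by 0.30 in Otx2+/- (SE 0.12, adjusted p = 0.22) and 0.28 in Otx2+/AA (SE 0.14, adjusted p = 0.61). Cdkn1b read 48.5 and 44.8, 46.7 and 38.4, 49.6 and 47.2, and 46.5 and 47.5 CPM in the conditional groups and 60.0 and 60.7, 63.9 and 60.9, and 66.1 and 51.4 CPM in the constitutive groups. Its differences lay between -0.13 and 0.05 in the 4 comparisons with controls, each smaller than its SE.

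**Figure D3:**
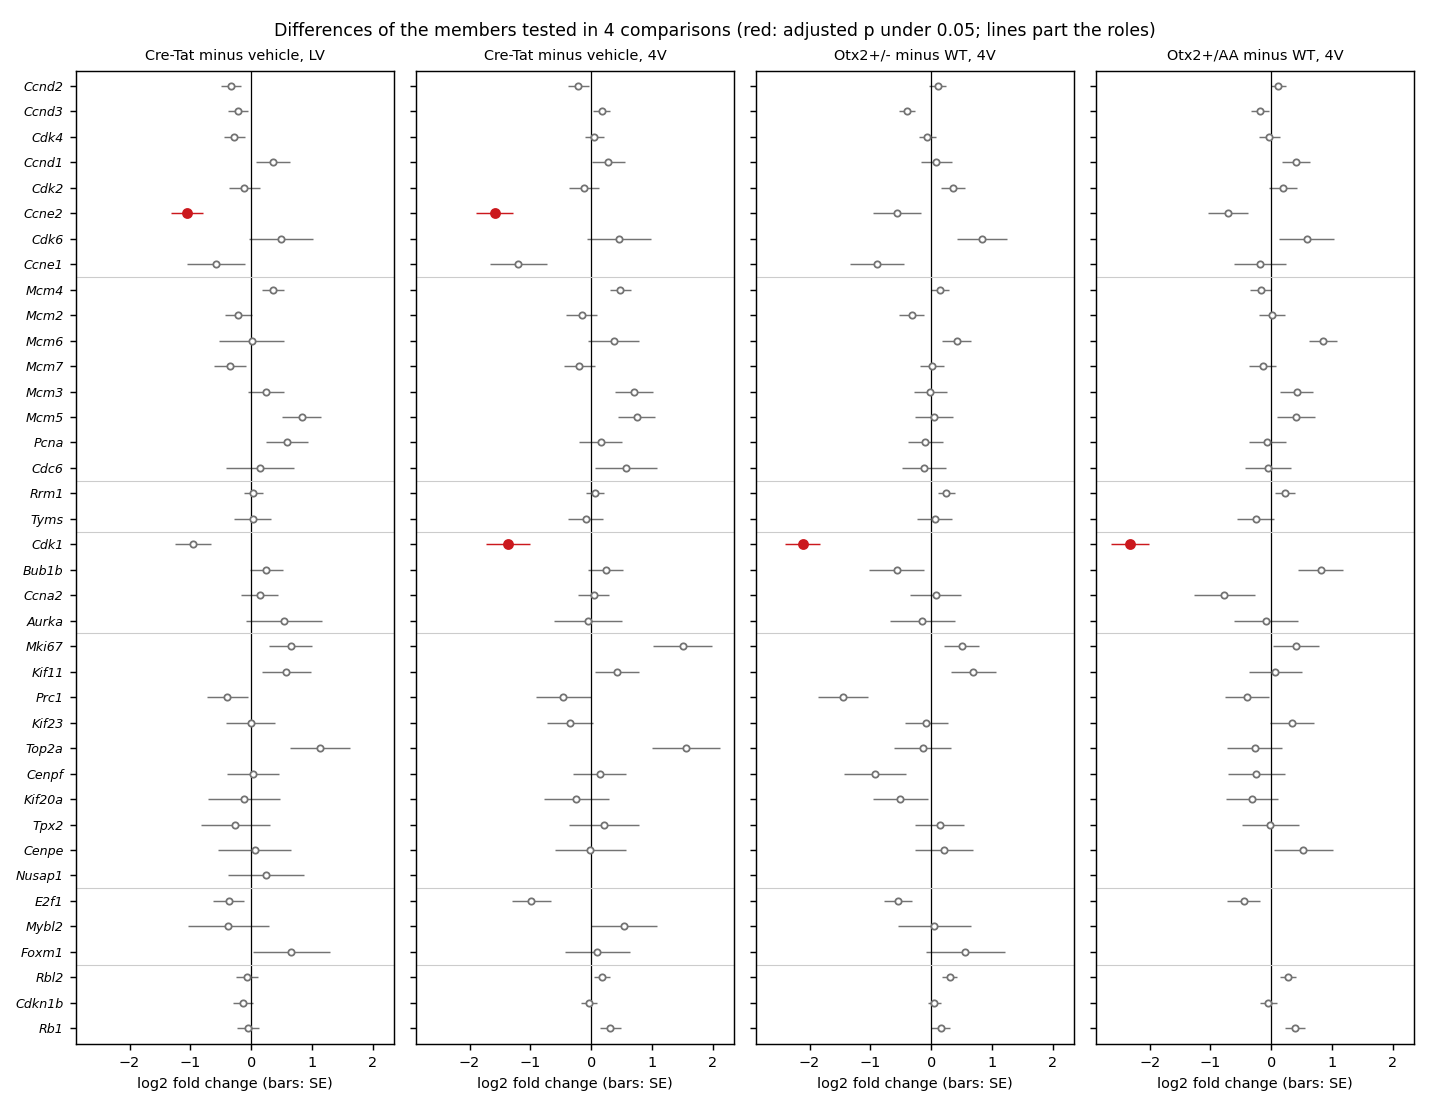
Log2 fold change of each member that was tested, with bars of 1 SE, in Cre-Tat against vehicle LV, Cre-Tat against vehicle 4V, Otx2+/- against WT and Otx2+/AA against WT, grouped by role; red points passed an adjusted p of 0.05. Ccne2 is red in both Cre-Tat panels and Cdk1 in all but the LV panel, and the other members, drawn open in grey, lie on both sides of 0.

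The other cell cycle genes, 115 matched genes that take in further E2F and DREAM subunits, polymerases, condensins, checkpoint kinases, anaphase-promoting complex subunits, inhibitors and genes of the resting state, gave a share of calls in the Cre-Tat comparisons below that of all genes. In Cre-Tat 4V 7 of 99 tested passed, 5 higher and 2 lower, which is 7.07% beside 10.7% of all genes. E2f7, a repressor of the E2F family, read 2.22 and 2.40 CPM in vehicle 4V and 0.814 and 0.605 in Cre-Tat 4V (log2 -1.69, SE 0.43, adjusted p = 0.0153). Espl1, the protease separase that cuts cohesin, read 1.78 and 2.12 CPM in vehicle and 0.706 and 0.756 in Cre-Tat pools (-1.39, SE 0.44, adjusted p = 0.0497). These genes, with Cdk1 and Ccne2, were lower in every Cre-Tat pool of the 4V. On the higher side were Wee1, the kinase that holds Cdk1 inactive, with 4.96 and 6.28 CPM in vehicle and 12.0 and 12.4 in Cre-Tat pools (1.13, SE 0.20, adjusted p = 0.00132), and Foxo3, a factor of resting cells, with 57.6 and 74.1 against 118 and 170 CPM (1.13, SE 0.17, adjusted p = 0.000226). Gas1, a growth arrest gene, rose from 7.85 and 9.23 to 14.7 and 14.7 CPM (0.79, SE 0.18, adjusted p = 0.00860), and Txnip, an inhibitor of glucose uptake, rose by 0.53 (SE 0.13, adjusted p = 0.0147). The remaining gene called higher belonged to DNA copying, as 1 of the 14 polymerase and clamp loader genes of the replication fork that were tested. In LV only Txnip passed of 101 tested (0.990% beside 3.24% of all genes), with 92.5 and 118 CPM in vehicle and 198 and 163 in Cre-Tat pools (0.79, SE 0.18, adjusted p = 0.0258).

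In the constitutive model Cdk1 was the only call among the members, 1 of 37 tested in Otx2+/- (2.7% beside 3.53% of 14573 genes, 1.75% lower and 1.78% higher) and 1 of 35 in Otx2+/AA (2.86% beside 0.345% of 14494 genes, 0.172% in each direction). Without WT pool 1, which leaves 1 WT pool, Cdk1 differed by -2.15 in Otx2+/- and by -2.36 in Otx2+/AA. In Otx2+/AA 50 genes passed in all, and Cdk1 was among them while whole-transcript Otx2 differed by 0.06 (SE 0.13) there. None of the 100 and 101 other cell cycle genes tested passed, with 12 and 3 at an unadjusted p under 0.05. At that level stood 5 members in Otx2+/- and 4 in Otx2+/AA (13.5% and 11.4% of those tested, beside 18.5% and 8.91% of all genes). They include the helicase subunit Mcm6, named after its values were seen, which read 10.2 and 5.96 CPM in WT and 14.5 and 14.9 in Otx2+/AA (0.85, SE 0.23, adjusted p = 0.17).

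Between the ventricles of vehicle pools, 0 of 37 members passed (edgeR) beside 7.44% of 14561 genes, with 3 at an unadjusted p under 0.05, all higher in LV. Prc1 read 2.77 and 3.43 CPM in LV and 1.56 and 1.29 in 4V (log2 1.104, SE 0.36, unadjusted p = 0.00815, adjusted p = 0.0789). A share of 27.0% of its transcript lies opposite Rccd1. Ccne2 was 0.51 higher in LV (SE 0.23, adjusted p = 0.20). Of the other cell cycle genes the condensin subunit Ncapd3 passed, lower in LV by 0.61 (SE 0.16, adjusted p = 0.0337). No member passed for a difference between the ventricles in the effect of Cre-Tat (0 of 39, with 0 at an unadjusted p under 0.05 and 0.00642% of all genes called), nor for a difference between the models in 4V (0 of 38, with 1 at an unadjusted p under 0.05, Ccnd3, and 1.64% of all genes called).

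Some members differed between the models whatever the group. Of the 32 members with a mean of at least 1 CPM, 4 were higher in all 6 constitutive pools than in any of the 8 conditional pools and 2 were lower, which is 18.8% beside 15.4% of 13440 genes, so the members were not set apart in this. Ccnd2 spanned 47.8 to 80.7 CPM in the conditional and 130.04 to 162 CPM in the constitutive pools, Ccnd1 (named, like Ccna2 and Mcm6, after its values were seen) 3.70 to 9.60 and 13.8 to 28.7 CPM, Cdkn1b 38.4 to 49.6 and 51.4 to 66.1 CPM, and Mcm6 0.764 to 1.94 and 5.96 to 14.9 CPM. Ccna2 went the other way, with 2.64 to 4.80 and 0.522 to 1.35 CPM, as did Bub1b, with 2.95 to 5.02 and 0.668 to 2.16 CPM. Between the control groups of the 4V, WT exceeded vehicle 6.28-fold for Mcm6 and 4.30-fold for Ccnd1, and vehicle exceeded WT 4.03-fold for Ccna2. These are levels with no test, since strain, injection and sequencing run all part the models and cannot be told apart. Of the transcripts named here, 29.4% of Ccnd1 lies opposite another gene, as does 17.2% of Ccna2 and 16.7% of Ccnd3.

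**Figure D4:**
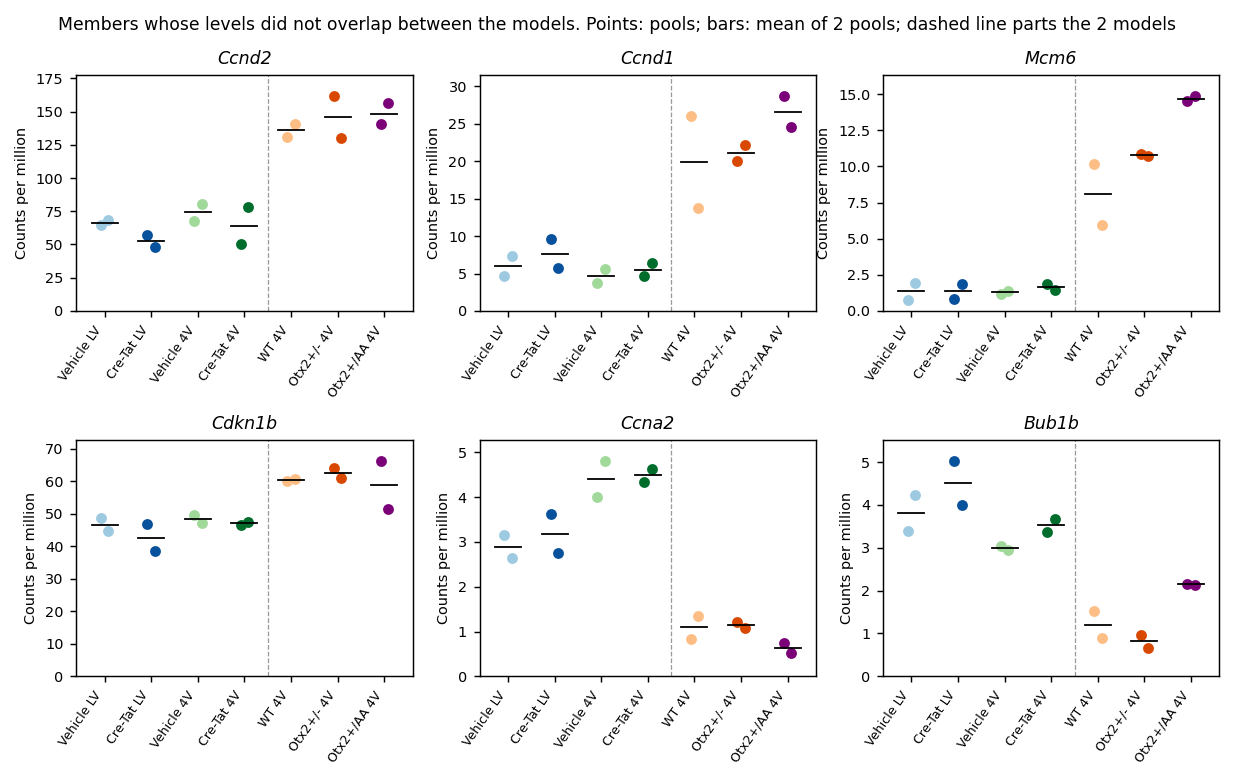
CPM of the 6 members whose pools did not overlap between the conditional (left of the dashed line) and constitutive model (right), with 1 point per pool and a bar at the mean of 2 pools; each axis starts at 0. Ccnd2, Ccnd1, Mcm6 and Cdkn1b are higher in every constitutive pool, and Ccna2 and Bub1b in every conditional pool.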

How the data were processed

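The deposited files hold counts per Ensembl transcript for 95533 transcripts, which the authors made from 50-base reads. The submitters' processing notes name bcl2fastq 1.8.4, Bowtie 0.12.9, SAMtools, HTSeq 0.5.3 and DESeq 1.8.3, with mm10. The labels describe ribosomal depletion and a strand-specific kit, and the study describes PolyA+ selection. Each gene was represented by its transcript of highest summed count, with symbols from GENCODE vM21 (82807 transcripts matched, 89.5% of counts). Reads shared between transcripts of a gene were not separated. Technical runs were summed. CPM use library sizes scaled by the trimmed mean of M-values over the 14 pools, and length is that of the transcript.

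Each comparison was fitted with edgeR 4.0.16 (filterByExpr, quasi-likelihood F-test, Benjamini-Hochberg adjustment over all genes tested, threshold 0.05) on the pools of the groups compared. SE was derived from the F statistic. Alternatives were DESeq2 1.42.0, its size factors, total counts, no filter, pool numbers as a block, sums over transcripts, all groups of the run, files as attached and each pool left out. The scripts were tested on simulated data. Members and lists were chosen with earlier results of these data known; 115 of 117 other cell cycle genes were matched. Genes were named where they passed the threshold or were the 2 most abundant of their role (for other cell cycle genes, at most 4 per direction and comparison), and the others were named after their values were seen, as the text says for those whose values it discusses.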

Additional observations from a re-analysis of the deposited data

How the results depend on the processing

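Of 100 alternative counts of members called, 72 stayed within 1.5 times the value reported. This total takes in the comparisons in which no member passed, where a count that stayed at 0 was scored as unchanged. It therefore does not describe the stability of the calls alone. In LV the count of 1 fell to 0 with DESeq2, with its size factors and with total counts, and rose to 2 with no filter and with sums over transcripts. In 4V the count of 2 rose to 5 with total counts and with no filter, which added E2f1, as sums over transcripts did. Over all genes, total counts called 1742 of 14550 in 4V and no filter called 1900 of 21709. In LV no filter called 874 of 21793 genes and sums over transcripts 441 of 15479. No filter gave 2 in Otx2+/AA and 1 between ventricles, as did sums over transcripts between ventricles (Prc1). The calls over all genes there were 390 of 23345, 1840 of 21337 and 813 of 15096, in that order. With 1 pool left out the counts ran from 0 to 1 in LV (0 without Cre-Tat LV pool 2 or vehicle LV pool 2), 2 to 4 in 4V (4 without Cre-Tat 4V pool 2 or vehicle 4V pool 2), 1 to 2 in Otx2+/- (2 without WT pool 1), 1 to 3 in Otx2+/AA (3 without WT pool 1) and 0 to 1 between ventricles (1 without vehicle LV pool 1). Total-count scaling moved the median of all genes by 0.17 in LV and 0.15 in 4V.

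The pools carry letters (conditional) or numbers (constitutive) that the labels do not tie to anything shared. LV and 4V pools can hold tissue of the same mice, as said above. Deviations of pools with the same letter or number correlated at -0.12 in LV, 0.10 in 4V, 0.29 in Otx2+/- and 0.05 in Otx2+/AA. With it as a replicate block the count was 1 in LV, 6 in 4V (E2f1, Mcm4, Mki67 and Top2a added), 4 in Otx2+/- (Ccnd3, Prc1 and Rbl2 added), 2 in Otx2+/AA (Mcm6 added), 1 between ventricles (Prc1) and 1 for the difference between models (Ccnd3). The block also raised the calls over all genes, to 622 of 15002 in LV, 3114 of 14550 in 4V and 2539 of 14573 in Otx2+/-. They reached 549 of 14494 in Otx2+/AA, 2288 of 14561 between ventricles and 1048 of 15327 for the difference between models. Crossing the letters in LV, a pairing chosen after seeing the data, gave 2, with 1012 of 15002 genes called.

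With files as attached to samples, which puts 12 of the 16 files in another group than their library number does, the counts were 11 in LV, 15 in 4V, 7 between ventricles, 8 for the treatment by ventricle difference and 9 for that between models. Calls over all genes were also many under that attachment, with 6709 of 14956 in LV, 8742 of 14858 in 4V and 4718 of 14454 between ventricles. For the treatment by ventricle difference they were 5258 of 15380, and for that between models 4688 of 15421. Ccne2 then differed by 0.68 in LV and 0.95 in 4V and Cdk1 by 0.60 in 4V, opposite in sign to the values reported, so these directions rest on the library numbers. Under the other 11 alternatives Ccne2 in 4V stayed past the threshold (-1.71 to -1.45), as did Cdk1 in Otx2+/- (-2.27 to -1.97) and in Otx2+/AA (-2.41 to -2.21). Genes under 1 CPM rest on few counts, and for the 11 members not tested a difference was not detectable at this depth.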
